A study of Mus musculus with 12 samples.

Results

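The telomere-side ends of the mouse autosomes were followed through maps of lamina contact in early embryos. The end of a chromosome was defined as its last 10 Mb on a grid of 100-kb bins, counted back from the largest LAD end of that chromosome in any of the 4 deposited lists of lamina-associated domains (LADs). This gave 100 bins on each of chromosomes 1 to 19, or 1900 of the 23849 bins that lie between the first and the last LAD of a chromosome. The other 21949 bins are called the rest of the chromosomes. Because the count starts at a LAD end, the last bin of every chromosome is in a LAD of at least 1 list by definition. All LADs used here are on autosomes.

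Dam-LaminB1, a fusion of the adenine methyltransferase Dam to a lamin, marks DNA near the nuclear lamina and was used in mouse embryos labelled (C57BL/6J xCBA) x DBA/2J. The 12 samples form 4 groups of 3 replicates: siRif1 4-cell, siControl 4-cell, siRif1 8-cell and siControl 8-cell. All groups received 20 µM siRNA as zygotes, 17 to 18 h after hCG, siRif1 against Rif1 or siControl. All were then injected at 46 to 48 h, in both blastomeres, with Tir1 (250 ng/µL), membrane-eGFP (100 ng/µL) and AID-Dam-LaminB1 (20 ng/µL), and were kept in 500 µM auxin, which degrades the AID-tagged fusion until it is removed. Removal was at 54 h for 4-cell embryos, collected at 60 to 62 h, and at 66 h for 8-cell embryos, collected at 72 to 74 h. A replicate pooled 16 to 24 blastomeres from 4 to 6 embryos at the 4-cell stage or 2 to 3 embryos at the 8-cell stage. Each group has 1 list made from all its replicates, so no replicate error, read depth or p-value can be given, and each difference below is a comparison of 2 pooled lists. Chromosomes and bins are not replicates of a condition, and SDs over chromosomes describe chromosomes. The lists hold no expression values and check neither the knockdown nor the identity of the cells. They contained 644 LADs in siRif1 4-cell, 601 in siControl 4-cell, 738 in siRif1 8-cell and 746 in siControl 8-cell embryos.

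Mouse autosomes are telocentric: the centromere lies at the start of the coordinates, and the far end is the telomere of the long arm. LADs are typically gene-poor, transcriptionally quiet and late-replicating, and in early mouse embryos they are rebuilt over the cleavage stages. Rif1, first described in budding yeast as a telomere-bound protein, sets late replication timing in mammalian cells together with protein phosphatase 1.

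Of the 1903 protein-coding genes in the ends, 4 promoters are shown as examples. They do not span the range of CpG counts, whose first quartile over the ends was 5. Each belongs to the first named gene with an entry in the promoter table within the longest stretch of its kind, and covers 250 bases before to 50 bases after the RefSeq start (GRCm38.p6), with each CpG in capitals. Plekha5 (chr6:140423849-140424148, plus strand) lay in the longest stretch that was LAD in all 4 lists and its promoter holds 59 CpGs. Spsb1 (chr4:149954957-149955256, minus strand) lay in the longest stretch outside LADs in every list (28 CpGs). Ndufs4 (chr13:114388045-114388344, minus strand) was LAD in siRif1 4-cell embryos only (12 CpGs), and Gpr12 (chr5:146585190-146585489, minus strand) in siRif1 8-cell embryos only (11 CpGs).
Plekha5 promoter: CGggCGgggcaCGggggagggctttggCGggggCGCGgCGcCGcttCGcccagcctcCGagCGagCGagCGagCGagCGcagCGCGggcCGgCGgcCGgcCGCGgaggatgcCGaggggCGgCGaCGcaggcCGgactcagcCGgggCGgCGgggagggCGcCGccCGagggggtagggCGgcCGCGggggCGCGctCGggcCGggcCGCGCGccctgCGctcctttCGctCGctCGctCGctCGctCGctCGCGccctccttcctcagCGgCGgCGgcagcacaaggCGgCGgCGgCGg
Spsb1 promoter: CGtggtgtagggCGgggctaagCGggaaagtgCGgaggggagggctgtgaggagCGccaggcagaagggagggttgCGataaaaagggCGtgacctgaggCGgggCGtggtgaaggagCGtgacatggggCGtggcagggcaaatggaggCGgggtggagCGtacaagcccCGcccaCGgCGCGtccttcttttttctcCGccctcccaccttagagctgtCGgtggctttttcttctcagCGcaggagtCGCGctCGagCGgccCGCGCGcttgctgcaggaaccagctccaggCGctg
Ndufs4 promoter: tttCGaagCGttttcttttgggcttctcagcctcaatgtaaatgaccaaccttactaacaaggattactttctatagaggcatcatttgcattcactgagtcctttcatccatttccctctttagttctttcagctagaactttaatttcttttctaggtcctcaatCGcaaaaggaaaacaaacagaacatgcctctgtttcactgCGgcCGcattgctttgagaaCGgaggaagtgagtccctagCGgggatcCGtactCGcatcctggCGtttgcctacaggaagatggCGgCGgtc
Gpr12 promoter: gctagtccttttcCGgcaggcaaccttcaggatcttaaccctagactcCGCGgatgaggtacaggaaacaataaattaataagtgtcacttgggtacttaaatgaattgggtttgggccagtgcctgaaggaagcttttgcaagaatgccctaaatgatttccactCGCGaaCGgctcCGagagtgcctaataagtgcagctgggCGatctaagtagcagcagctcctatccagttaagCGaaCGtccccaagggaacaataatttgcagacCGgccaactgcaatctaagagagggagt
Of these 4, the promoter in the shared LAD holds the most CpGs, whereas over all genes of the ends the median was lower in LADs, as given with the gene content.

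Across all 19 chromosomes the ends were not uniformly more or less lamina-associated than the rest. LADs covered 787 of 1900 end bins (41.4%) in siRif1 4-cell, 693 (36.5%) in siControl 4-cell, 907 (47.7%) in siRif1 8-cell and 894 (47.1%) in siControl 8-cell embryos. Over all bins of the series these shares were 43.5%, 32.9%, 42.9% and 44.7% in the same order of lists. End minus rest was -2.30 percentage points in siRif1 4-cell embryos, where the rest stood at 43.7%. It was 3.83 points in siControl 4-cell (rest 32.6%), 5.24 points in siRif1 8-cell (rest 42.5%) and 2.53 points in siControl 8-cell embryos (rest 44.5%). Each of these differences is small beside the spread between chromosomes, with means over chromosomes of -1.87 ± 18.0, 3.61 ± 16.0, 6.38 ± 15.9 and 2.49 ± 20.3 points (SD, 19 chromosomes) in that order. The ends had more coverage than the rest of their own chromosome on 7, 9, 12 and 10 of 19 chromosomes. Counted back from the last annotated gene, which places no LAD at the end by definition, the difference was -4.02 points in siRif1 4-cell, 1.92 in siControl 4-cell, 2.89 in siRif1 8-cell and 0.0792 in siControl 8-cell embryos. Single chromosomes also set these values: without chromosome 6 they were -4.20, 1.55, 3.20 and 0.254 points in the same order. Without chromosome 4 the difference was -0.638 points in siRif1 4-cell and 5.24 points in siControl 8-cell embryos.

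**Figure D1:**
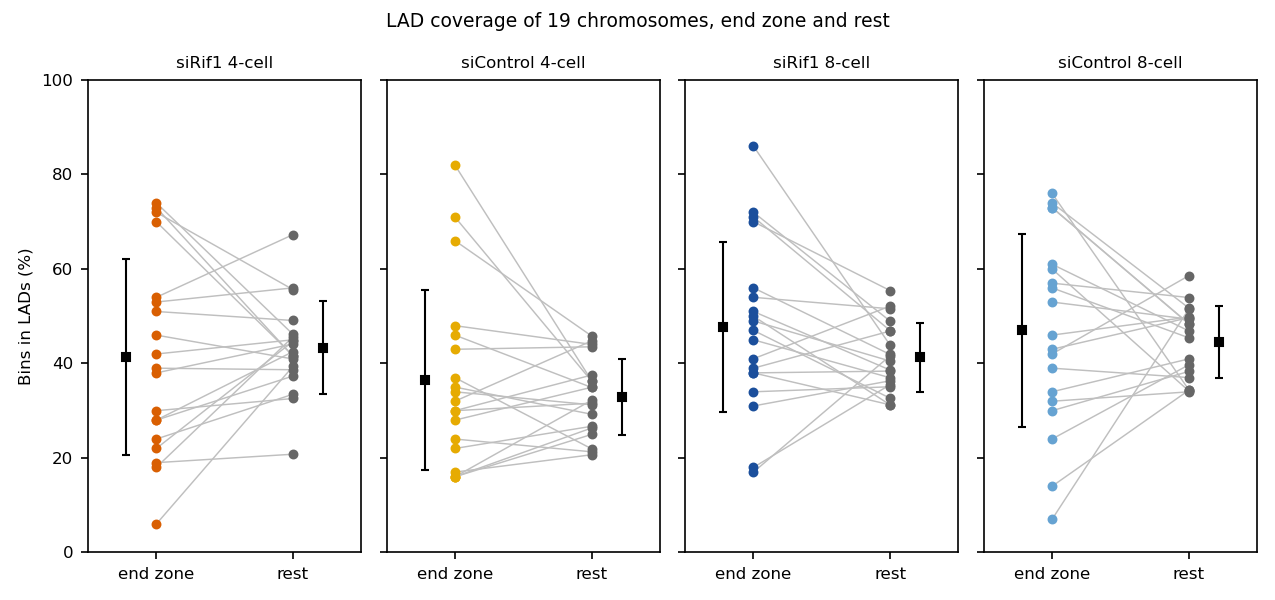
LAD coverage (percent of 100-kb bins) of each of 19 chromosomes in its telomere-side 10 Mb (coloured points) and in its rest (grey points), 1 panel per list. Lines join the values of 1 chromosome and squares with bars give mean ± SD over chromosomes. Coverage of the ends runs from 6% to 74% in siRif1 4-cell embryos and from 17% to 86% in siRif1 8-cell embryos, wider than in the rest, which also holds more bins per chromosome.

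Within the ends, coverage followed a profile with a trough. In the last 1 Mb, bins were LAD in 56.8% of cases in siRif1 4-cell, 47.9% in siControl 4-cell, 68.4% in siRif1 8-cell and 66.8% in siControl 8-cell embryos. The next band, 1 to 2 Mb in, was at 61.1%, 53.2%, 62.1% and 65.8% in the same order. The definition forces no LAD there. LADs that reach the end can still extend into it (up to 4.2 Mb long in siRif1 4-cell embryos), so this band is not free of the definition. All 4 lists then reached the lowest value of the 10 bands at 4 to 5 Mb. There coverage was 15.3% in siRif1 4-cell, 6.84% in siControl 4-cell, 24.7% in siRif1 8-cell and 21.1% in siControl 8-cell embryos, and a LAD was present on 6, 3, 6 and 8 chromosomes. A second high band followed at 8 to 9 Mb, with 61.1%, 51.6%, 67.4% and 59.5%. Low bands were not limited to the ends: at 14 to 15 Mb coverage was 25.8%, 27.4%, 24.7% and 34.7% in the same order. Spread between chromosomes was wide in every band, for example an SD of 19.2 points around the 6.84% of siControl 4-cell embryos at 4 to 5 Mb. Just inside the 10-Mb limit, the bin was LAD on 8, 9, 8 and 10 chromosomes in siRif1 4-cell, siControl 4-cell, siRif1 8-cell and siControl 8-cell embryos, and just outside it on 8, 9, 8 and 11.

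**Figure D2:**
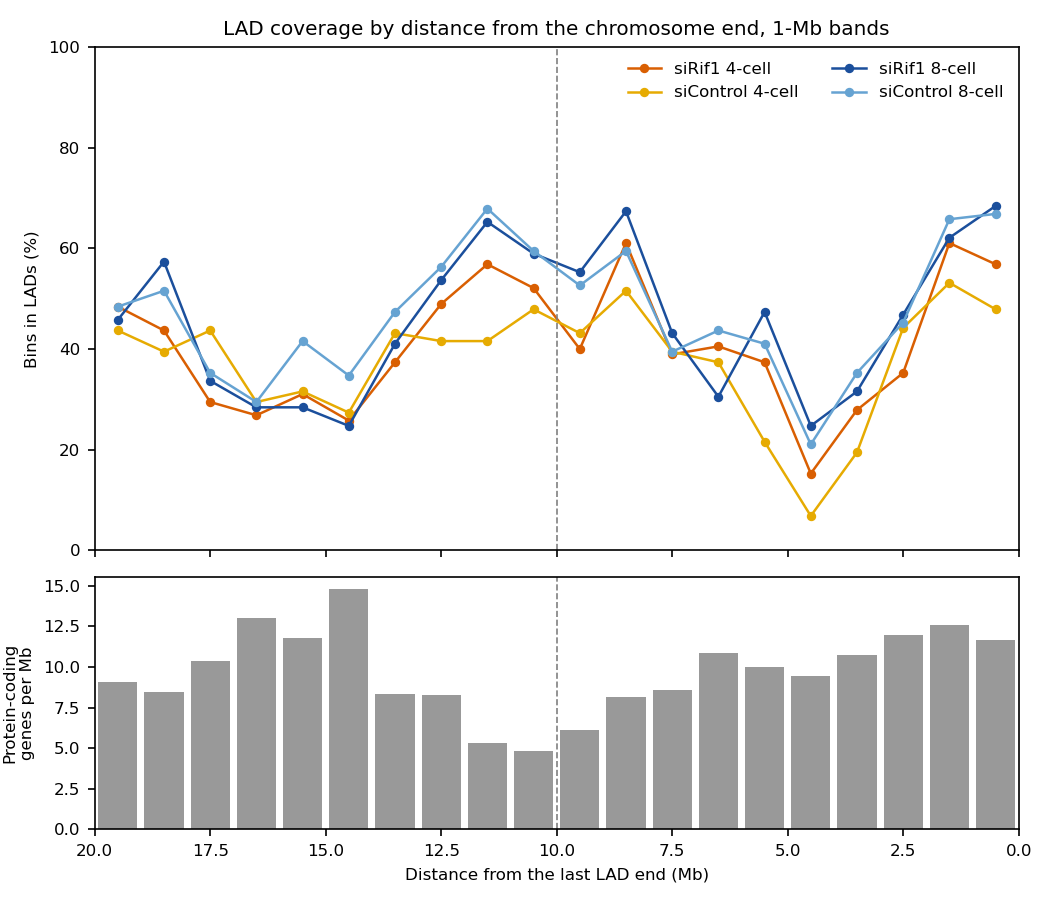
Upper panel, percent of bins in LADs in 1-Mb bands (190 bins each over 19 chromosomes) by distance from the last LAD end, for the 4 lists. Lower panel, protein-coding genes per Mb in the same bands. The dashed line marks 10 Mb. All 4 lists are lowest within the ends at 4 to 5 Mb, where gene density (9.47 per Mb) is not the highest of these bands.

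Gene density was not highest where coverage was lowest. It was 11.7 protein-coding genes per Mb in the last band and 12.6 at 1 to 2 Mb, where coverage was high, and 9.47 per Mb at 4 to 5 Mb, where it was lowest. It was 6.11 per Mb at 9 to 10 Mb. The share of bins without a protein-coding gene was 46.8% in the last band, 54.7% at 4 to 5 Mb and 64.2% at 9 to 10 Mb.

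Coverage of the ends varied widely between chromosomes. On chromosomes 1, 3 and 6 the ends had more coverage than the rest in all 4 lists, and on chromosomes 4, 8 and 11 less. The end of chromosome 6 was LAD over 73% in siRif1 4-cell, 82% in siControl 4-cell, 86% in siRif1 8-cell and 76% in siControl 8-cell embryos. That of chromosome 1 was at 74%, 71%, 70% and 74% in the same order. Both were mostly LAD in every list. At the other extreme, the end of chromosome 4 was at 6%, 16%, 17% and 7%, and that of chromosome 11 at 18%, 16%, 18% and 14%. On the other 13 chromosomes the order of end and rest changed between lists. Chromosomes 13 and 14 followed the stage, with 56% and 50% in siRif1 8-cell and 56% and 60% in siControl 8-cell embryos, against 28% and 30% in siRif1 4-cell and 17% and 24% in siControl 4-cell embryos. Chromosome 19 ran the other way, with 47% in siRif1 8-cell and 42% in siControl 8-cell embryos, against 70% in siRif1 4-cell and 66% in siControl 4-cell embryos.

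**Figure D3:**
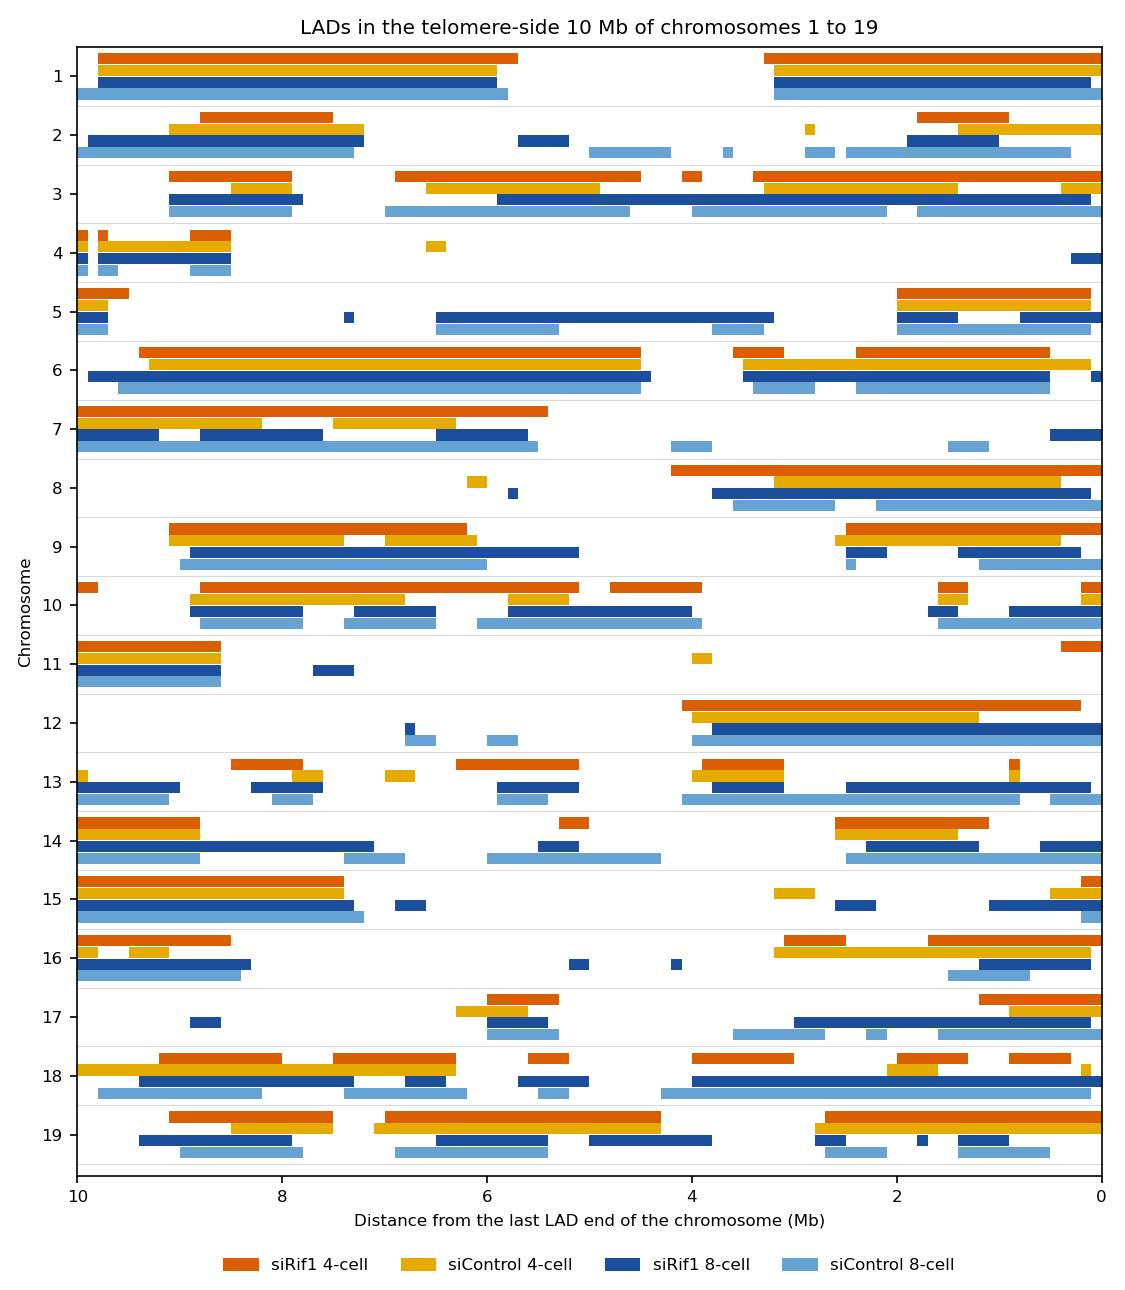
LADs in the telomere-side 10 Mb of each chromosome, 1 row per list, against distance in Mb from the last LAD end of that chromosome (the end is at the right). Coloured bars are 100-kb bins in LADs. Chromosomes 1 and 6 carry long LADs that all 4 lists share, and chromosomes 4 and 11 are nearly free of them beyond the innermost part.

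The longest stretch of end bins that was LAD in all 4 lists spanned 4.8 Mb of chromosome 6 (140000001 to 144800000), 4.5 to 9.3 Mb from the end. Among its 28 protein-coding genes were Plcz1, a sperm phospholipase that activates the egg, the actin-capping gene Capza3 and Plekha5. The longest end LADs of siRif1 4-cell (4.9 Mb), siControl 4-cell (4.8 Mb) and siControl 8-cell embryos (5.1 Mb) all lay there. The longest end LAD of siRif1 8-cell embryos was another, 5.8 Mb of chromosome 3 (154100001 to 159900000) with the choline transporter-like gene Slc44a5, the LIM homeobox gene Lhx8 and Tyw3. Of its 58 bins, 49 were LAD in siRif1 4-cell, 32 in siControl 4-cell and 49 in siControl 8-cell embryos. The longest stretch outside LADs in every list spanned 6.1 Mb of chromosome 4 (149800001 to 155900000), 0.3 to 6.4 Mb from the end, with 91 protein-coding genes, the first of them Spsb1, a substrate adaptor of an E3 ubiquitin ligase, the endoplasmic reticulum enzyme gene H6pd and Gpr157.

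At the outermost bin, LAD state was seldom shared. The last bin was LAD on 10 chromosomes in siRif1 4-cell, 7 in siControl 4-cell, 9 in siRif1 8-cell and 10 in siControl 8-cell embryos. It was LAD in 1 list only on 9 chromosomes, in 2 lists on 5, in 3 lists on 3 and in all 4 lists on 2, chromosomes 10 and 15. In 5 of the 9 single cases the list was siRif1 8-cell (chromosomes 4, 5, 6, 7 and 18). The LAD that reached the end was 2.1 Mb long at the median for siRif1 4-cell, 0.9 Mb for siControl 4-cell, 0.8 Mb for siRif1 8-cell and 1.7 Mb for siControl 8-cell embryos. These counts depend on the definition of the end and are given as a description.

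On each chromosome, the named protein-coding gene nearest to the end was taken among genes with their midpoint inside the 10 Mb. Genes beyond the largest LAD end, which are LAD in no list, could not be taken. The gene taken was LAD in 11 of 19 cases in siRif1 4-cell, 8 in siControl 4-cell, 13 in siRif1 8-cell and 12 in siControl 8-cell embryos. All protein-coding genes of the series were LAD in 24.0%, 24.7%, 24.2% and 26.3% of cases in that order. This is not a like comparison, because each end is set at a LAD end and so favours LAD genes beside it. On 0 chromosomes was this gene LAD in no list, a count that the same choice favours. For 6 chromosomes that gene was LAD in all 4 lists: the complement receptor gene Cr2 (chromosome 1), the cadherin gene Cdh26 (2), the Wnt-secretion gene Wls (3), the clamp-loader gene Rfc3 (5), the pheromone receptor gene Vmn2r87 (10) and Glycam1 (15), which encodes an adhesion mucin. It was LAD in siRif1 8-cell embryos only for Agrn (4), whose product organises the neuromuscular synapse, the synaptic scaffold gene Shank2 (7) and Tmx3 (18), a disulfide isomerase gene. It was LAD in siRif1 4-cell embryos only for Metrnl (11) and Zbtb21 (16), in siControl 4-cell embryos only for Amn1 (6) and in siControl 8-cell embryos only for Tcstv3 (13), a gene known for its expression at the 2-cell stage. Both 8-cell lists held Tmem196 (12), the fibroblast growth factor homologue Fgf14 (14) and the neuropeptide gene Adcyap1 (17), and both 4-cell lists Cacul1 (19). Ppp2r3d (9) was LAD in siRif1 4-cell and siControl 8-cell embryos, and Ccdc7b (8) in every list except siControl 4-cell. On 3 chromosomes annotated genes lay more than 0.5 Mb beyond the largest LAD end, by 2.50 Mb on chromosome 2 (62 protein-coding genes), 1.02 Mb on chromosome 7 (13 genes) and 0.605 Mb on chromosome 19 (9 genes). These stretches are outside LADs in all 4 lists and outside the 10 Mb described. Protein-coding genes also lay beyond the end on chromosomes 4 (7 genes), 6 (3), 11 (2), 15 (1), 16 (1) and 17 (2).

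The 4 lists shared their state over a larger share of the ends than of the rest. Of the 1900 end bins, 1198 (63.1%) had the same state in all 4 lists, against 11175 of 21949 bins of the rest (50.9%). LAD in all 4 lists were 475 end bins (25%) against 16.5% of the rest, and outside LADs in all 4 were 723 (38.1%) against 34.4%. The background over all bins was 17.2% for the first and 34.7% for the second. By chromosome, 63.1% ± 18.7 of end bins and 50.4% ± 5.23 of rest bins had 1 state throughout (SD, 19 chromosomes), and the ends were above the rest on 13 of 19. The ends of chromosomes 1 (94%), 11 (90%) and 4 (87%) varied least, and those of chromosomes 18 (31%), 13 (34%) and 19 (44%) most. Centromere-side 10 Mb, taken from the first LAD of each chromosome, stood at 39.2%. With the rest reweighted to the share of end bins that hold 0, 1 to 2 and 3 or more protein-coding genes, the difference between ends and rest was 10.9 points in place of 12.1. For the last 5 Mb alone it was 5.93 points, and for the last 20 Mb 14.3 points, so the larger share was not limited to the 10 Mb. In the last 1 Mb, where the definition places a LAD of at least 1 list, 27.9% of bins were LAD in all 4 lists and 9.47% in none. The last 1 Mb lowered the 12.1-point difference, which was 14.99 points without it. Bands beyond 10 Mb varied, with shares of 40% and 26.3% at 10 to 11 Mb and 15.3% and 56.3% at 16 to 17 Mb. Without chromosome 6 the 8.52-point difference in bins that were LAD in all 4 lists was 5.99 points. Bins LAD in a single list made up 1.47% (siRif1 4-cell), 1.89% (siControl 4-cell), 6.05% (siRif1 8-cell) and 4.05% (siControl 8-cell) of the ends, against 3.43%, 3.42%, 6.10% and 4.34% of the rest.

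At the 4-cell stage the question was how the ends change when Rif1 is depleted. LADs covered 41.4% of the ends in siRif1 and 36.5% in siControl embryos, a difference of 4.95 points, against 11.1 points in the rest. In the ends, 181 bins (9.53%) were LAD with siRif1 but not with siControl, where the background over all bins was 17.1%. A further 87 bins (4.58%) were LAD in siControl and not in siRif1 embryos (background 6.51%), and 606 were LAD in both. Bins with a different state made up 14.1% of the ends and 24.4% of the rest, and the ends were below the rest of their chromosome on 18 of 19 chromosomes, all but chromosome 18. The difference in coverage was positive on 15 chromosomes, up to 26 points on chromosome 3, and negative on 4, down to -12 points on chromosome 2. Its mean over chromosomes was 4.95 ± 10.1 points (SD) in the ends and 10.4 ± 7.73 points in the rest, and these spreads overlap.

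The longest end stretch that was LAD in siRif1 and not in siControl 4-cell embryos spanned 1.2 Mb of chromosome 13 (114100001 to 115300000). It held Ndufs4, a subunit gene of respiratory complex I, the activin antagonist gene Fst, the molybdenum cofactor gene Mocs2 and 3 more genes. Of its 12 bins, 8 were LAD in siRif1 8-cell and 5 in siControl 8-cell embryos. Stretches of 1 Mb followed on chromosome 3 (158600001 to 159600000, Depdc1a), chromosome 8 (125200001 to 126200000, Sipa1l2, Map10 and Ntpcr), chromosome 10 (123800001 to 124800000, no protein-coding gene) and chromosome 12 (118900001 to 119900000, Abcb5, Itgb8 and Macc1). Those on chromosomes 3 and 12 were LAD over their whole length in both 8-cell lists.

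In the other direction the stretches were shorter. The longest lay at the last LAD end of chromosome 2 (178600001 to 179500000, 0.9 Mb), with no named gene. The siControl 4-cell list alone sets that end, so the outermost bin of this stretch depends on the definition. The second was 0.8 Mb of chromosome 4 (146500001 to 147300000) with the zinc finger genes Zfp981, Zfp993 and Rex2. The third was 0.8 Mb of chromosome 16 (95500001 to 96300000) with the transcription factor gene Ets2, the proteasome assembly gene Psmg1 and Brwd1. Next came 0.8 Mb of chromosome 18 (80600001 to 81400000) with Nfatc1, Atp9b and Sall3, and 0.7 Mb of chromosome 6 (146200001 to 146900000) with the calcium channel gene Itpr2, Ints13 and Fgfr1op2. The chromosome 16 stretch was outside LADs in both 8-cell lists. Of the 1903 protein-coding genes of the ends, 98 (5.15%) were LAD with siRif1 but not with siControl and 94 (4.94%) the other way, against 7.37% and 8.08% of all protein-coding genes.

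At the 8-cell stage, differences between siRif1 and siControl embryos ran in both directions in the ends. LADs covered 47.7% in siRif1 and 47.1% in siControl embryos, a difference of 0.684 points, against -2.03 points in the rest. In the ends, 179 bins (9.42%) were LAD with siRif1 but not with siControl (background 11.4%), 166 (8.74%) in siControl and not in siRif1 embryos (background 13.3%), and 728 in both. States differed in 18.2% of end bins and 25.3% of rest bins, less often in the ends on 15 of 19 chromosomes. Coverage in siRif1 embryos was higher on 10 chromosomes, most on chromosome 15 (15 points), equal on 1 and lower on 8, most on chromosome 2 (-20 points). The sign of the net difference changed with the setting: it was -0.105 points for the last 5 Mb, -1.39 points for the last 20 Mb and -0.111 points without chromosome 15.

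The longest stretch LAD in siRif1 and not in siControl 8-cell embryos, 1.5 Mb of chromosome 5 (146500001 to 148000000), began with the receptor gene Gpr12, the deubiquitinase gene Usp12 and the ribosomal protein gene Rpl21. Its 22 protein-coding genes include Cdx2, the trophectoderm regulator. This stretch was outside LADs in both 4-cell lists. The second, 1.4 Mb of chromosome 14 (116100001 to 117500000), held the glypican gene Gpc6 and was also outside LADs in both 4-cell lists. The third, 1.2 Mb of chromosome 19 (55700001 to 56900000), held the Wnt effector gene Tcf7l2, Habp2 and Nrap, and 7 of its 12 bins were LAD in each 4-cell list. The fourth lay on chromosome 9 (118500001 to 119400000, Golga4, Itga9 and Ctdspl) and the fifth on chromosome 15 (102500001 to 103400000, Map3k12, Tarbp2 and Npff). The chromosome 15 stretch also covers the HoxC cluster.

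LAD in siControl and not in siRif1 8-cell embryos were 1.1 Mb of chromosome 3 (153000001 to 154100000) with the sialyltransferase gene St6galnac3, Asb17 and the meiotic recombination gene Msh4, and 1.1 Mb of chromosome 7 (136700001 to 137800000) with the DNA repair gene Mgmt, Ebf3 and Glrx3. Both were largely LAD at the 4-cell stage too: the chromosome 7 stretch in 11 of 11 bins in siRif1 and 10 in siControl embryos, and the chromosome 3 stretch in 10 and 7 of 11. Shorter stretches lay on chromosome 2 (174500001 to 175300000, Zfp831 and the endothelin gene Edn3) and chromosome 14 (119800001 to 120600000, Oxgr1, Mbnl2 and Rap2a). Another on chromosome 2 (178500001 to 179200000) held no protein-coding gene. Of the protein-coding genes of the ends, 161 (8.46%) were LAD with siRif1 but not with siControl, against 7.33% of all protein-coding genes, and 119 (6.25%) the other way, against 9.37%.

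In control embryos the ends were more covered at the 8-cell than at the 4-cell stage, by 10.6 points (47.1% against 36.5%), close to the 11.9 points of the rest. LAD at the 8-cell and not at the 4-cell stage were 330 bins (17.4%, background 20.3%), and 129 bins (6.79%, background 8.52%) were 4-cell-only. The difference was positive on 12 chromosomes and negative on 7, with a mean of 10.6 ± 18.4 points (SD) and extremes of 39 points on chromosome 13 and -24 points on chromosome 19. States differed in 24.2% of end bins and 29.2% of rest bins, but for the last 5 Mb the ends differed more often than the rest, by 1.67 points.

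The longest stretches LAD at the 8-cell and not at the 4-cell stage in control embryos spanned 2.2 Mb each. That of chromosome 13 (117300001 to 119500000) held Mrps30 and the growth factor gene Fgf10, and was outside LADs in siRif1 4-cell embryos too. That of chromosome 18 (86300001 to 88500000) held the neuronal genes Neto1 and Cbln2. Others lay on chromosome 14 (118900001 to 120600000, Dzip1, Dnajc3 and Uggt2, and 123500001 to 124900000, Itgbl1 and Fgf14) and chromosome 18 (89000001 to 90400000, Rttn, Cd226 and Dok6). The stretch with Itgbl1 reaches the end of chromosome 14, which both 8-cell lists set, so its outermost bin depends on the definition. LAD at the 4-cell and not at the 8-cell stage were 1.7 Mb of chromosome 16 (94800001 to 96500000) with the potassium channel genes Kcnj6 and Kcnj15 and the haematopoietic regulator Erg, and 1.2 Mb of chromosome 9 (122100001 to 123300000, Snrk, Ano10 and Abhd5). The remaining 3 were on chromosome 19 (55300001 to 56400000, Zdhhc6, Vti1a and Tcf7l2), chromosome 18 (82400001 to 83200000, the myelin gene Mbp, Zfp236 and Zfp516) and chromosome 4 (146600001 to 147300000, Zfp993, Rex2 and Zfp978). Of the protein-coding genes of the ends, 224 (11.8%) were 8-cell-only (all genes 11.2%) and 145 (7.62%) 4-cell-only (all genes 9.59%).

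In siRif1 embryos the ends were also more covered at the 8-cell stage, by 6.32 points (47.7% against 41.4%), whereas the rest was 1.23 points less covered (42.5% against 43.7%). In the ends, 265 bins (13.9%, background 13.0%) were 8-cell-only LAD bins and 145 (7.63%, background 13.6%) 4-cell-only. The ends had a share of 8-cell-only bins near the background and a lower share of 4-cell-only bins. By chromosome the difference was positive on 9, zero on 3 and negative on 7, with a mean of 6.32 ± 14.3 points in the ends and -1.93 ± 8.24 points in the rest (SD). Centromere-side 10 Mb ran the other way, with 43.2% at the 8-cell and 56.4% at the 4-cell stage. This comparison and those above share lists with each other, so their values are not independent.

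The longest stretch LAD at the 8-cell and not at the 4-cell stage in siRif1 embryos ran over 3.3 Mb of chromosome 5 (145300001 to 148600000). Its 41 protein-coding genes began with the drug-metabolising Cyp3a57, Cyp3a16 and Cyp3a41b, and 17 of its 33 bins were LAD in siControl 8-cell embryos. Adcyap1 lay in 1.8 Mb of chromosome 17 (91700001 to 93500000), Gpc6 in 1.7 Mb of chromosome 14 (116100001 to 117800000), Mrps30, Fgf10 and Nnt in 1.6 Mb of chromosome 13 (117900001 to 119500000) and Tshz2, Zfp217 and Bcas1 in 1.1 Mb of chromosome 2 (169600001 to 170700000). At the 4-cell stage alone, siRif1 embryos had LADs over Mgmt, Ebf3 and Glrx3 (chromosome 7) and St6galnac3, Asb17 and Msh4 (chromosome 3, 153100001 to 154100000). Further stretches of this kind held Rab11fip2, Fam204a and Prlhr at the last LAD end of chromosome 19 (59800001 to 60700000) and Topaz1, Tcaim and Zfp445 (chromosome 9, 122400001 to 123100000). Another, on chromosome 10 (124100001 to 124800000), held no protein-coding gene. Both 4-cell lists set the end of chromosome 19, so the outermost bin of its stretch depends on the definition. Of the protein-coding genes of the ends, 211 (11.1%) were 8-cell-only (all genes 8.83%) and 94 (4.94%) 4-cell-only (all genes 8.58%).

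**Figure D4:**
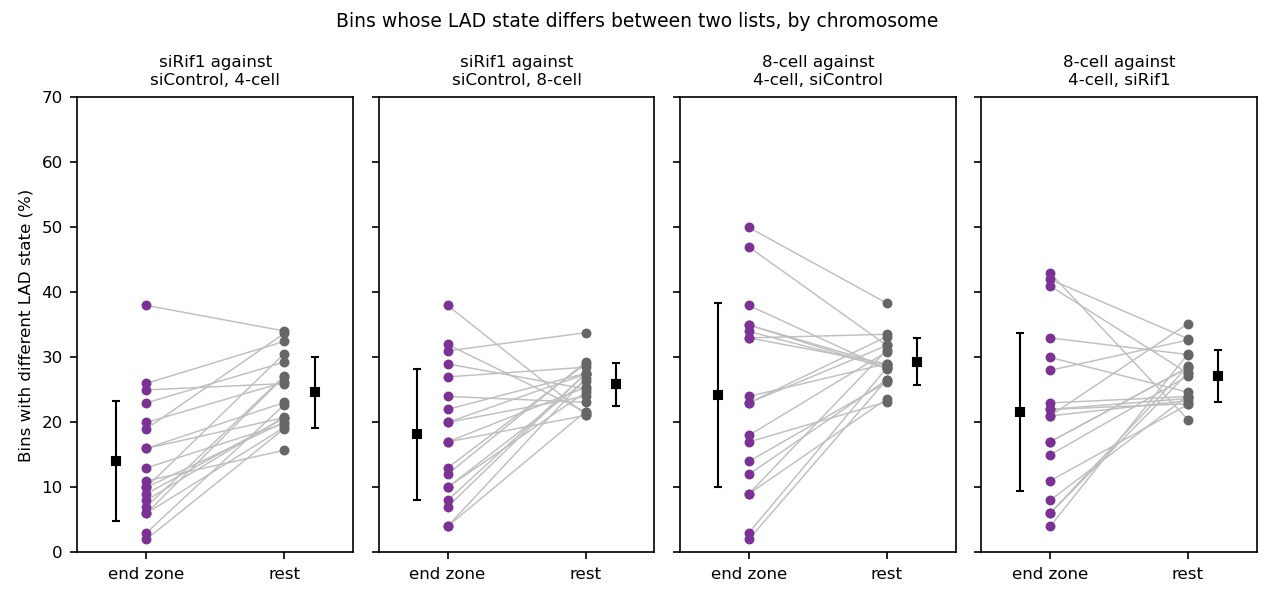
Percent of 100-kb bins whose LAD state differs between 2 lists, in the telomere-side 10 Mb (purple) and in the rest (grey) of each of 19 chromosomes, for the 4 comparisons. Lines join the values of 1 chromosome and squares with bars give mean ± SD over chromosomes. At the 4-cell stage, siRif1 and siControl embryos differ in 14.1% ± 9.24 of end bins and 24.6% ± 5.49 of rest bins.

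Gene content of the bins was set beside these values. The ends held 10.0 protein-coding genes per Mb and the rest 8.31, and 51.4% of end bins held no protein-coding gene, against 56.2% of rest bins. In end bins without such genes, LAD coverage was 53.2% in siRif1 4-cell and 43.4% in siControl 4-cell embryos, and in the rest 53.2% and 34.1%. The siRif1 minus siControl difference at the 4-cell stage in these bins was 9.83 points in the ends and 19.1 points in the rest. In end bins with 1 to 2 genes it was -0.148 points, and with 3 or more genes -0.403 points. End bins with 1 to 2 genes were LAD in 35.0% of cases in siRif1 4-cell, 35.1% in siControl 4-cell, 39.9% in siRif1 8-cell and 37.6% in siControl 8-cell embryos. Bins without protein-coding genes were LAD more often than these in all 4 lists, with 60.5% in siRif1 8-cell and 61.3% in siControl 8-cell embryos.

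A RefSeq promoter was found for 1547 of the 1903 protein-coding genes of the ends (chromosome 18 was not used). The median number of CpGs in 300 bases was 10 for 187 genes that were LAD in all 4 lists, 10 for 441 genes LAD in 1 to 3 lists and 20 for 919 genes LAD in none. In the rest, the medians were 9, 9 and 16 in the same order. The quartiles overlap widely, 3 to 23.5 CpGs for genes of the ends LAD in all 4 lists and 7 to 29 for those LAD in none.

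Of all protein-coding genes of the ends, 411 (21.6%) were LAD in siRif1 4-cell, 407 (21.4%) in siControl 4-cell, 528 (27.7%) in siRif1 8-cell and 486 (25.5%) in siControl 8-cell embryos. In all 4 lists, 216 of the 1903 were LAD, where the background was 9.66% of all protein-coding genes, and 1143 were LAD in none, where it was 57.4%.

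Clustered gene families at the ends often had 1 state over a whole block in a given list. The 58 olfactory receptor genes of chromosome 10, odorant receptors of the nose, lay 0.389 to 1.61 Mb from the end, and 34 were LAD in siRif1 8-cell and 57 in siControl 8-cell embryos, against 13 in siRif1 4-cell and 13 in siControl 4-cell embryos. The 19 olfactory receptor genes of chromosome 7 were LAD in siControl 8-cell embryos only (11 genes), and the 9 of chromosome 15 in no list. Olfactory receptor genes outside the ends (1011) were LAD in 37.7% of cases in siRif1 4-cell, 25.4% in siControl 4-cell, 57.1% in siRif1 8-cell and 57.1% in siControl 8-cell embryos. The chromosome 10 block stood at 22.4%, 22.4%, 58.6% and 98.3% in the same order. Of the 5 vomeronasal receptor genes at the ends, 4 were LAD in siRif1 4-cell, 4 in siControl 4-cell and all 5 in both 8-cell lists. Outside the ends, 342 such genes were LAD in 19.01% of cases in siRif1 4-cell and 14.04% in siControl 4-cell embryos. At the 8-cell stage the shares were 40.64% in siRif1 and 68.71% in siControl embryos. This is not a like comparison, because all 5 genes lay 0.115 to 0.226 Mb from the end. Each end is set at a LAD end, which favours LAD genes beside it.

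Keratin and keratin-associated genes, which build epidermis and hair, have 55 of 109 list members in the ends. The 24 keratin-associated genes of chromosome 16 were LAD in 22 cases in siRif1 4-cell and 12 in siControl 4-cell embryos, and all 24 in both 8-cell lists. Of the 26 keratin genes of chromosome 15, 1 was LAD, in siRif1 8-cell embryos, and the 5 keratin-associated genes of chromosome 7 were LAD in none. Of the 54 outside, 1.85% were LAD in siRif1 4-cell, 14.8% in siControl 4-cell, 0% in siRif1 8-cell and 81.5% in siControl 8-cell embryos. The 9 genes of the HoxC cluster (chromosome 15, 102921131 to 103036856), which pattern the body axis, were LAD in siRif1 8-cell embryos and in no other list. The 8 Cyp3a genes of chromosome 5, xenobiotic-metabolising P450 enzymes, were LAD in both 8-cell lists and in neither 4-cell list. Outside the ends, Hox genes (30) were LAD in 0%, 30%, 0% and 30% of cases, in the order of lists above. P450 genes there (85) were LAD in 41.2%, 30.6%, 40% and 40%. Genes of a compact block such as HoxC share bins, so they are not independent observations. Longer blocks can change state within themselves.

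The 45 zinc finger genes of the ends were LAD in 14 cases in siRif1 4-cell, 18 in siControl 4-cell, 18 in siRif1 8-cell and 15 in siControl 8-cell embryos. The 330 zinc finger genes outside the ends were LAD in 10.9%, 20%, 11.8% and 20% of cases in that order. Of the 12 on chromosome 4, 6 were LAD in siRif1 4-cell, 10 in siControl 4-cell, 10 in siRif1 8-cell and 7 in siControl 8-cell embryos. The 4 on chromosome 9 were LAD in 3 cases in each 4-cell list and in none at the 8-cell stage. Of 9 ribosomal protein genes, 8 were LAD in no list and Rpl21 in siRif1 8-cell embryos only. Outside the ends, shares were 7.69% in siRif1 4-cell, 18.5% in siControl 4-cell, 4.62% in siRif1 8-cell and 10.8% in siControl 8-cell embryos. Of 2 proteasome genes, 1 was LAD, in siControl 4-cell embryos, and the complex I gene was Ndufs4. The single histone gene was LAD in no list, and the single C-type lectin gene, Clec3b, in every list except siControl 8-cell. No bitter taste receptor, clustered protocadherin, beta defensin, serpin or Pramel gene lay in the ends.

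**Figure D5:**
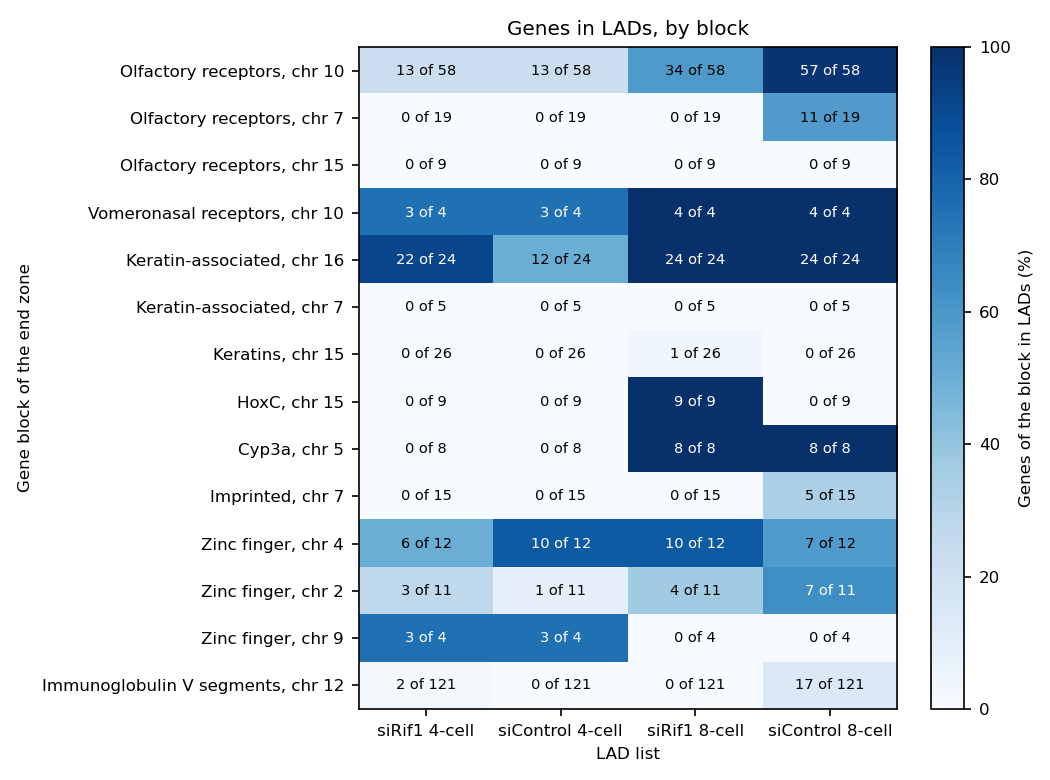
Number and percent (shade) of genes in LADs in each list for 14 blocks of genes in the telomere-side 10 Mb. Values are given as LAD genes of all genes of the block. Blocks differ in extent, and the 11 zinc finger genes of chromosome 2 lie 1.43 to 9.37 Mb from the end. HoxC genes are LAD in siRif1 8-cell embryos only (9 of 9), Cyp3a genes in both 8-cell lists (8 of 8), and olfactory receptor genes of chromosome 10 in 57 of 58 cases in siControl 8-cell embryos.

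The ends held 6 of 15 listed trophectoderm genes and 5 of 24 germ layer regulators, against 9.45% of all protein-coding genes. Of the 6 trophectoderm genes, none was LAD in either 4-cell list. Outside the ends, 33.3% of the 9 listed were LAD in each 4-cell list. At the 8-cell stage this share was 11.1% in siRif1 and 22.2% in siControl embryos. Cdx2 was LAD in siRif1 8-cell embryos only, Ascl2, needed for placental lineages, in siControl 8-cell embryos only, and the T-box gene Eomes in both 8-cell lists, whereas Krt8, Krt18 and Tfap2c were LAD in none. Of the 5 germ layer regulators, the forebrain gene Emx2 was LAD in all 4 lists and Eomes in both 8-cell lists. The motor neuron gene Isl1 was LAD in siControl 8-cell embryos, and Olig2 and Six3 in none. Outside the ends, shares were 36.8% in siRif1 4-cell, 21.1% in siControl 4-cell, 31.6% in siRif1 8-cell and 21.1% in siControl 8-cell embryos. Of the 2-cell stage genes, Tcstv1 was LAD in siRif1 8-cell and Tcstv3 in siControl 8-cell embryos. Tcstv3 lay 0.0824 Mb from the end of chromosome 13, which the siControl 8-cell list alone sets. Outside the ends, the 20 listed were LAD in 30% of cases in siRif1 4-cell, 35% in siControl 4-cell, 35% in siRif1 8-cell and 50% in siControl 8-cell embryos. Imprinted genes are expressed from 1 parental allele. The 15 of distal chromosome 7 were outside LADs in both siRif1 lists and in siControl 4-cell embryos. Imprinted genes outside the ends (20) were LAD in 15% of cases in each siRif1 list, 20% in siControl 4-cell and 30% in siControl 8-cell embryos. In siControl 8-cell embryos, Th, Ascl2, Tspan32, Cd81 and Tssc4 were LAD, and the neighbouring H19, Igf2, Ins2, Kcnq1, Kcnq1ot1, Cdkn1c, Slc22a18, Phlda2, Nap1l4 and Osbpl5 were not. Dio3 and Gnas, imprinted genes of chromosomes 12 and 2, were LAD in no list. Neither were Utf1 (pluripotency), Gins2 and Cdt1 (replication), Lemd3 (nuclear envelope) or Ten1 (telomere maintenance).

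Some features without protein-coding status, chosen after their values were seen, fill parts of the ends. The immunoglobulin heavy chain locus of chromosome 12 places 121 V segments 4.09 to 6.52 Mb from the end, and 102 of them were LAD in no list. LAD were 2 in siRif1 4-cell, 0 in siControl 4-cell, 0 in siRif1 8-cell and 17 in siControl 8-cell embryos. The 253 V segments of the rest were LAD in 34.0%, 9.09%, 44.3% and 33.6% of cases in that order. The 10 D segments and 4 J segments of this locus were LAD in siControl 8-cell embryos only. They lie between 113428514 and 113525329, in neighbouring bins, and are not independent observations. In the rest, 50% of 4 D segments were LAD in each list. The 78 J segments there were LAD in 25.6%, 16.7%, 25.6% and 20.5% of cases in the same order of lists. Of 115 miRNA genes in the ends, 28 (24.3%) were LAD in siRif1 4-cell, 32 (27.8%) in siControl 4-cell, 42 (36.5%) in siRif1 8-cell and 23 (20%) in siControl 8-cell embryos. The 988 miRNA genes of the rest were LAD in 18.5%, 17.6%, 15.7% and 23.1% of cases in that order. The 8-cell lists differ in part through chromosome 15, where 7 of 11 were LAD in siRif1 and 0 in siControl embryos, among them Mir196a-2 and Mir615 of the HoxC cluster. LAD in all 4 lists were 21, and LAD in none 67.

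Among those LAD in all 4 lists are the 6 miRNAs of the Mir17 to Mir92-1 cluster of chromosome 14 (115043671 to 115044506, plus strand), a polycistron that promotes proliferation. It lay 9.86 Mb from the end, near the inner limit. Their mature sequences (RefSeq, GRCm38.p6) are shown with the seed, bases 2 to 8, in capitals, since they fall into groups by seed.
mmu-miR-17-5p: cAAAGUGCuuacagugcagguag
mmu-miR-20a-5p: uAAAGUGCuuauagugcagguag
mmu-miR-18a-5p: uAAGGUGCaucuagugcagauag
mmu-miR-19a-3p: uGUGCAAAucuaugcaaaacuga
mmu-miR-19b-3p: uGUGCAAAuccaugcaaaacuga
mmu-miR-92a-3p: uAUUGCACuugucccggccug
The first 2 share the seed AAAGUGC, the miR-19 pair shares GUGCAAA, and miR-18a (AAGGUGC) and miR-92a (AUUGCAC) have seeds of their own.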

How the data were processed

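Lamina contacts were measured by DamID in 12 samples of pooled blastomeres. The authors deposited 1 LAD list for each of the 4 groups, made from all replicates per the series' design text. The deposited values are other than expression: LAD starts and ends in bp, in multiples of 100 kb, beside a score of 0 that was left aside. Trimmomatic, Bowtie2, SAMtools, Picard and mm10 (GRCm38) are named per the submitters' processing notes. How LADs were called, with which threshold and with what correction for unfused Dam, is not given in the sources used here, and a threshold that depends on depth would change how much is called.

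Here the lists were turned into 100-kb bins (Python 3.11.15, pandas 2.3.3, numpy 2.4.6), checked on simulated lists. Coordinates are 1-based. Genes came from RefSeq (GRCm38.p6), without 333 of 47042 entries placed on scaffolds, and 20144 protein-coding genes were placed by midpoint. All comparisons are descriptive, with no test. Named genes were the first 3 of the 5 longest differing stretches per direction, members of short lists, the gene nearest each end and genes of the longest shared stretches, with other genes said to be chosen afterwards. A few genes chosen this way are not reported here. Members and lists were chosen with earlier results of these data known. Alternatives were another zone length, another anchor, a minimum LAD length of 300 kb, bridging of gaps up to 200 kb, equal chromosome weights, another rest and each chromosome left out. After the data were examined, a rest matched on gene content and the alternatives for differing bins were added.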

Additional observations from a re-analysis of the deposited data

Results flagged for a closer look

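On 10 of 19 chromosomes the siRif1 minus siControl difference in LAD coverage of the end had opposite signs at the 8-cell and the 4-cell stage. The difference between stages was not tested, since each group has 1 pooled list. In percentage points, at the 8-cell and then the 4-cell stage, chromosome 1 had -4 and 3, chromosome 3 had -2 and 26, and chromosome 7 had -19 and 16. Chromosome 10 had -8 and 21, chromosome 12 had -7 and 11, chromosome 14 had -10 and 6, and chromosome 18 had -1 and 8. The signs were the other way on chromosome 4 with 10 and -10, on chromosome 6 with 10 and -9, and on chromosome 15 with 15 and -7. In the rest of the chromosomes, the difference was positive on 8 of 19 at the 8-cell and on 17 of 19 at the 4-cell stage. Opposite signs were thus common outside the ends too, and are not a trait of the ends.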

How the results depend on the processing

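Of 142 values computed under alternatives for 14 results, 127 kept their direction and lay within the 95% binomial interval of the reported value, 11 lay outside it and 4 reversed. This interval treats neighbouring bins as independent, which they are not, so it is a yardstick of size and no measure of stability. Inside it, end minus rest in siControl 8-cell (2.53 points) was 0.328 without the last 1 Mb and 0.254 without chromosome 6. In siRif1 4-cell (-2.30 points) it ranged between -4.45 for the last 5 Mb and -0.638 without chromosome 4. In siControl 4-cell (3.83 points) it was 1.92 counted back from the last annotated gene. The alternatives that change only the rest, or the weights of chromosomes with 100 bins each, leave the differences between lists within the ends as they are. The siRif1 minus siControl difference at the 8-cell stage (0.684 points) reversed for the last 5 Mb (-0.105), for the last 20 Mb (-1.39) and without chromosome 15 (-0.111). For the last 5 Mb, the control 8-cell and 4-cell lists differed more often in the ends than in the rest (1.67 points, against -5.06). The siRif1 and siControl 8-cell lists differed by -4.35 points (against -7.11), end minus rest in siControl 4-cell was 1.43 points, bins with 1 state in all lists 5.93 points and bins LAD in all lists 4.17 points. For the last 20 Mb, the siRif1 8-cell and 4-cell lists differed by -7.69 points (against -5.48). Counted back from the last annotated gene, end minus rest was 2.89 points in siRif1 8-cell and 0.0792 points in siControl 8-cell. Without the last 1 Mb, bins with 1 state in all lists were at 14.99 points (against 12.1). Without chromosome 6, end minus rest was 1.55 points in siControl 4-cell and 5.99 points for bins LAD in all lists, and without chromosome 4 it was 5.24 points in siControl 8-cell. The cause of these changes was not tested. No paired analysis was possible because each deposited list pools its replicates, and for the same reason no replicate could be left out. Read depth is unknown from the lists.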
